A study of Homo sapiens with 14 samples.

Results

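Histone genes were examined in T-cell acute lymphoblastic leukemia (T-ALL) cell lines treated with a PI3K inhibitor. The members were all genes whose annotated symbol marks a histone, by the older prefixes HIST1H to HIST4H, H2AF and H3F or the newer H1-, H2AC, H2BC, H3C, H4C, H2AZ, H2AX, H2AJ and H3-3. Each gene was read by its brightest probe set that names that gene alone. This gave 55 of the 19775 genes measured. Of these, 43 were replication-dependent genes (6 of H1, 8 of H2A, 14 of H2B, 7 of H3 and 8 of H4) and 8 were variants (H1-7, H1-8, H1-10, H2AJ, H2AX, H2AZ1, H2AZ2 and H3-3A). The other 4 were the pseudogenes H1-9P, H2AC5P and H4C10P and the noncoding H1-10-AS1. A further 20 coding histone genes were listed only by probe sets shared with other genes, and 28 shared probe sets are described apart.

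The study hybridized 14 HG-U133 Plus 2.0 arrays to RNA of 7 established T-ALL lines (Jurkat, CCRF-CEM, TALL-1, HPB-ALL, Molt-4, ALL-SIL and P12-ICHIKAWA). In each line, 1 culture received AS605240 at its own IC50 for 6 h and 1 culture received vehicle for 6 h. The labels do not give the concentrations, which were not the same in every line. AS605240 is a small-molecule inhibitor of PI3K, a lipid kinase upstream of Akt and mTORC1, and all 14 cultures grew in RPMI-1640 with fetal bovine serum. Each line had 1 array per treatment, so the line is the unit of replication (n = 7 pairs), and the spread given is that of the response between lines.

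Histones are the proteins around which DNA is wound. The core of a nucleosome holds H2A, H2B, H3 and H4, and the linker histone H1 binds where DNA enters and leaves it. Replication-dependent histone genes lie in clusters, lack introns and are transcribed mainly in S phase, and their mRNAs end in a stem-loop that is bound by SLBP in place of a poly(A) tail. Variant genes lie apart, and most, but not all, have introns, polyadenylated mRNAs and expression through the whole cell cycle. The classes here follow the gene symbol, so a gene counted in either class may share traits of the other. Since the labeling kit used here primes cDNA from poly(A), arrays of this kind read replication-dependent histone mRNAs inefficiently. Bulk RNA cannot tell more cells in S phase from more histone RNA per cell. With priming from poly(A), a rise could also mean that more replication-dependent histone mRNAs carried a poly(A) tail. Which of these applied was not tested. The paper reports that the inhibitor lowered the share of cells in S phase in the lines assayed, at a later time than these arrays.

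Many H2A and H2B genes stand in pairs that are read in opposite directions from 1 shared promoter. The promoters of the members on which the results turn are shown from RefSeq (build GRCh38.p14), 5′ to 3′ on the strand of the gene and ending at the base before its start. They are examples only. H4C13 and H2AZ1, shown as not called, belong to other groups than the H2A and H2B genes that rose. Group and response therefore cannot be told apart from these sequences. Capitals mark the octamer ATTTGCAT, the TATA box TATAAA and the CCAAT box CCAAT, each on either strand. The 250 bases before H2AC6 (chr6:26123922-26124171, plus strand) hold the whole stretch to H2BC4 and pass its start, which lies 246 bases away on the opposite strand.
H2AC6: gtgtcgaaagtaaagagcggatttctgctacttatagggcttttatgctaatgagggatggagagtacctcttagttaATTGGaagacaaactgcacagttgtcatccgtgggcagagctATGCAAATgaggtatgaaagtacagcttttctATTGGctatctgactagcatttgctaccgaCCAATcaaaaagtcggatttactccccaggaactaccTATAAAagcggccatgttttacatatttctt
The octamer begins 130 bases before the start of H2AC6, and 3 CCAAT boxes and 1 TATA box were found. For 3 H2B genes that rose, the last 140 bases before the start are given: H2BC12 (chr6:27146859-27146998, minus strand), H2BC21 (chr1:149886683-149886822, minus strand) and H2BC5 (chr6:26157981-26158120, plus strand).
H2BC12: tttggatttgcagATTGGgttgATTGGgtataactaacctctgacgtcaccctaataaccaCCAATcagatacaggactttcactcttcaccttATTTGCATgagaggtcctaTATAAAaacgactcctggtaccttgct
H2BC21: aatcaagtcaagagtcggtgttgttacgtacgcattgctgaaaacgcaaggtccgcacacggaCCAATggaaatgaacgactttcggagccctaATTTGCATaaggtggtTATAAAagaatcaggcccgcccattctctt
H2BC5: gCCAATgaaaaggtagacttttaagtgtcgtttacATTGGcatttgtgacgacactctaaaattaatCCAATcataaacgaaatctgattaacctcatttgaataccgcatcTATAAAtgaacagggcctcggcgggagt
H2BC12 and H2BC21 both have the octamer 46 bases before the start and a TATA box just after it. H2BC5 has the TATA box but no exact octamer in this window. For comparison, H4C13 (chr6:27873535-27873674, minus strand), a gene of H4 that was not called, and the variants H2AX (chr11:119095466-119095605, minus strand) and H2AZ1 (chr4:99950276-99950415, minus strand), of which the first rose, are given over the same length.
H4C13: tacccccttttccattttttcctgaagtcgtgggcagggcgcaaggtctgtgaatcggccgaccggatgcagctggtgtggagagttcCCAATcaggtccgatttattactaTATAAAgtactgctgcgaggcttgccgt
H2AX: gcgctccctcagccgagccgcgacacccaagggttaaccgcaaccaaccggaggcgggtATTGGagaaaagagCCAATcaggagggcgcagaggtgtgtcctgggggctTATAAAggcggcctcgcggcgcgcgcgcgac
H2AZ1: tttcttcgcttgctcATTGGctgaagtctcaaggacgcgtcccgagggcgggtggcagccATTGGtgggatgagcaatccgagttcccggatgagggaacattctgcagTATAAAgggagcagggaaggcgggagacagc
None of these 3 windows has an octamer, and all 3 have a TATA box.

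The octamer, which is bound by Oct factors, was found in windows of 250 bases before to 50 after the start in 10 of the 13 H2B members and 6 of the 8 H2A members matched in the table. It was in none of the 6 H1, 6 H3, 7 H4 and 8 variant members, and in 1.80% of all 27305 promoters. The TATA box was in 27 of 40 replication-dependent members and 3 of 8 variants, against 11.95% of all promoters. The CCAAT box was in 35 of 40 and 7 of 8, against 35.7% of all promoters. Of the H2B genes that rose, 6 of 7 had the octamer, as did 4 of 6 that were not called. An E2F-type element (TTTGGCGC, TTTCGCGC or TTTCCCGC on either strand) was in 10 of 40 replication-dependent members and in no variant, against 2.79% of all promoters. These counts describe letters in a window and not bound sites.

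Array medians differed little, from 5.18 to 5.36 on the log2(signal + 16) scale with AS605240 and from 5.17 to 5.34 with vehicle. Of the T-cell markers, 9 of 9 measured had a signal above 50 on 7 or more arrays, and of the B-cell, myeloid, erythroid and epithelial or fibroblast markers only CD79A, LYZ, HBB, KRT8 and COL1A1 did. With vehicle, TALL-1 and P12-ICHIKAWA gave nearly the same profile (Pearson's r = 0.994 across genes, which are not independent replicates, against at most 0.953 for any other pair of lines), although the labels give them as 2 lines. The 43 replication-dependent genes differed between these 2 by a median of 0.10, against 0.16 to 0.37 for the other pairs. Polyadenylated spike-in RNAs, added to the samples before labeling, had AS605240 values above those of vehicle in every line, with a mean log2 difference of 0.22 (SD 0.17, n = 7). The part of this shift in the changes below was not tested.

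A subset of the replication-dependent histone genes rose with AS605240 and none fell. In limma with the line as a block, 16 of 43 rose at an adjusted p under 0.05, 0 fell and 27 were not called, while 11.8% of all genes rose and 7.03% fell. The changes were small. The median over the 43 genes was 0.16 ± 0.08 on the log2 scale (SD of the 7 line medians), against 0.01 over all genes, and 39 of 43 were above 0. A rise of over 1.5-fold was seen for 2 of 43 genes, H2AC6 and H1-2, against 1.07% of all genes. This count depended on the offset, with 7 of 43 at an offset of 4 (1.82% of all genes) and 0 of 43 at an offset of 64 (0.364%). Centring each array on its median left 14 of 43 higher with a median of 0.10, and the split of calls over all genes was then 1667 higher and 2146 lower, in place of 2339 higher and 1390 lower.

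Of the 8 variants, H1-10 and H2AX rose, 0 fell and 6 were not called, with a median of 0.16 ± 0.10. The difference between the class medians ran from -0.18 in Jurkat to 0.24 in TALL-1 and had no common sign over the lines. The classes are described side by side, with no test of the difference. The 18 coding genes that rose were higher in 7 of 7 lines for 15 genes and in 6 of 7 for 3 (H2AC17, H2BC21 and H2AC8). Since levels differed widely between lines, the AS605240 and vehicle ranges overlapped for all 18.

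**Figure D1:**
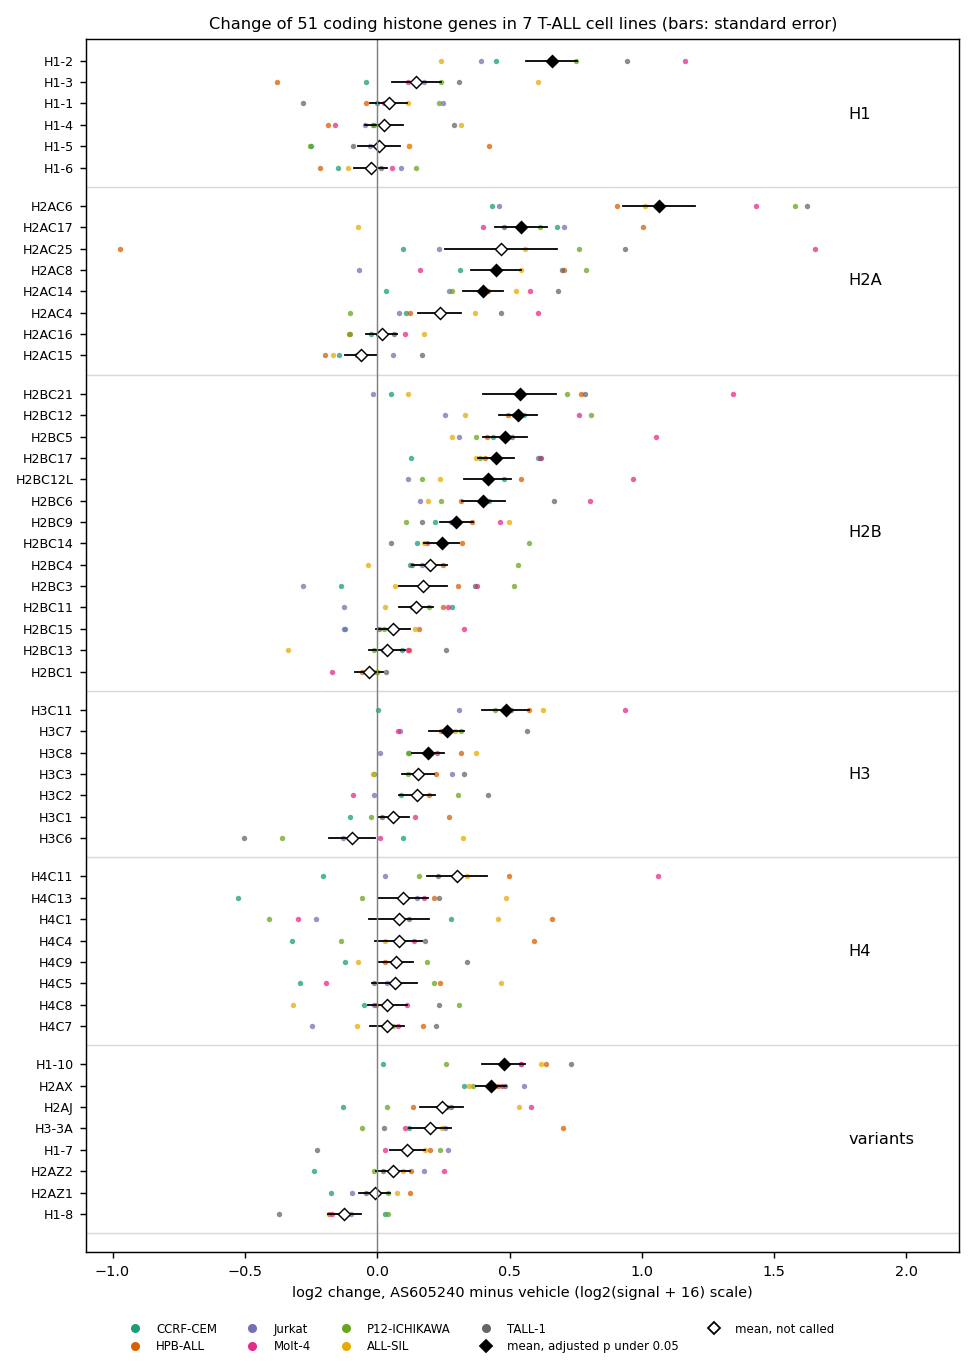
Change of the 51 coding histone genes (rows, grouped by histone type) as AS605240 minus vehicle on the log2(signal + 16) scale. Small points are the 7 lines, diamonds the mean with its standard error, and filled diamonds the 18 genes with an adjusted p under 0.05. The filled diamonds lie in H1, H2A, H2B, H3 and the variants, with none in H4.

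Among the 6 replication-dependent linker histones only H1-2 rose. H1-2 is one of the main somatic H1 subtypes. Its level was 5.53, 6.74 and 7.41 (lowest, median and highest line) with AS605240, against 5.14, 5.97 and 6.96 with vehicle. The ranges overlapped, since CCRF-CEM was high and Jurkat low in both, but all 7 pairs went up, by 0.24 in ALL-SIL to 1.16 in Molt-4. The mean change was 0.66 ± 0.10 (SE), or 1.58-fold (limma adjusted p = 0.000388). The other 5 replication-dependent H1 genes changed by -0.02 to 0.15 and were not called, and none of them had a signal over 50 on any array, so they were measured near background.

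Of the 8 H2A genes 4 rose, and H2AC6 had the largest change of all members. H2AC6 was 4.85, 6.37 and 6.86 with AS605240, against 4.39, 5.02 and 5.93 with vehicle. With AS605240, 6 of the 7 lines lay above the highest vehicle array, and Jurkat alone stayed low. The change was 1.06 ± 0.14, or 2.09-fold (limma adjusted p = 0.000154), from 0.43 in CCRF-CEM and 0.46 in Jurkat to 1.58 in P12-ICHIKAWA and 1.62 in TALL-1. With P12-ICHIKAWA and TALL-1 counted as 1 line it was 0.97 and still called.

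H2AC17 was 5.19, 5.46 and 6.10 with AS605240, against 4.75, 5.10 and 5.35 with vehicle. It rose by 0.54 ± 0.10 (limma adjusted p = 0.00157), with the lowest change in ALL-SIL (-0.07), and had a signal over 50 on 1 array. H2AC8 rose by 0.45 ± 0.10 and H2AC14 by 0.40 ± 0.08, with limma adjusted p-values of 0.00466 and 0.00214. H2AC8 never exceeded a signal of 50, whereas H2AC14 did on 14 of 14 arrays. H2AC25, an H2A gene outside the large clusters, was 4.18, 6.85 and 8.35 with AS605240, against 4.34, 6.09 and 7.43 with vehicle. Its changes had the widest spread of all members. It was 1.65 higher in Molt-4 and 0.97 lower in HPB-ALL. In HPB-ALL it was 4.18 with AS605240 and 5.15 with vehicle, near the floor set by the offset. A second, dimmer probe set (median signal 7.79) changed by 0.02. The mean change of H2AC25, 0.47 ± 0.21, was not called (limma adjusted p = 0.156). Without HPB-ALL it was 0.71 and called (adjusted p = 0.00795). H2AC4, H2AC15 and H2AC16 changed by 0.24, -0.06 and 0.02 and were not called.

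Of the 14 H2B genes 8 rose. H2BC12 was 6.93, 8.32 and 8.97 with AS605240, against 6.67, 7.78 and 8.41 with vehicle. Jurkat was the lowest line and CCRF-CEM the highest in both groups, and every pair went up, by 0.26 in Jurkat to 0.81 in P12-ICHIKAWA. The mean change was 0.53 ± 0.07 (limma adjusted p = 0.000228). H2BC21 was 5.00, 5.86 and 6.70 with AS605240, against 4.99, 5.32 and 5.74 with vehicle, and had a signal over 50 on 3 of 14 arrays. Its change of 0.54 ± 0.14 (limma adjusted p = 0.0134) was uneven. Molt-4 rose by 1.35, and HPB-ALL, P12-ICHIKAWA and TALL-1 by 0.77, 0.72 and 0.78, while CCRF-CEM, Jurkat and ALL-SIL moved by 0.05, -0.02 and 0.12.

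H2BC5 was 6.09, 7.07 and 7.40 with AS605240, against 5.79, 6.64 and 6.92 with vehicle. It rose by 0.48 ± 0.08 (limma adjusted p = 0.0012), and its second probe set gave 0.49. The remaining called H2B genes were H2BC17, H2BC12L, H2BC6, H2BC9 and H2BC14, which rose by 0.45, 0.42, 0.40, 0.30 and 0.24. H2BC17 and H2BC14 had no array over a signal of 50, and the change of H2BC17 ran from 0.14 at an offset of 64 to 1.01 at an offset of 4. H2BC12L lies on chromosome 21, away from the other H2B genes. The 6 that were not called, H2BC1, H2BC3, H2BC4, H2BC11, H2BC13 and H2BC15, ran from -0.03 to 0.20.

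Of the 7 replication-dependent H3 genes 3 rose. H3C11 was 5.34, 6.05 and 6.39 with AS605240, against 4.41, 5.61 and 6.05 with vehicle. Molt-4 was the low line in both groups and rose by 0.94, whereas CCRF-CEM did not move (0.005). The mean was 0.49 ± 0.09 (limma adjusted p = 0.00168). H3C7 rose by 0.26 ± 0.07 and H3C8 by 0.19 ± 0.06, with limma adjusted p-values of 0.0122 and 0.0384. The call for H3C8 was lost without any 1 of 6 lines, CCRF-CEM, HPB-ALL, Molt-4, P12-ICHIKAWA, ALL-SIL or TALL-1. H3C1, H3C2, H3C3 and H3C6 changed by 0.06, 0.15, 0.16 and -0.10 and were not called.

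No H4 gene was called. All 8 H4 changes were above 0, from 0.04 to 0.30, with a median of 0.08. H4C13 was 6.80, 7.60 and 7.81 with AS605240, against 6.62, 7.42 and 7.66 with vehicle. The groups covered nearly the same range, and the change was 0.10 ± 0.10 (limma adjusted p = 0.57), with CCRF-CEM down by 0.53 and ALL-SIL up by 0.49. H4C11 was 7.13, 8.11 and 8.88 with AS605240, against 7.11, 7.85 and 9.08 with vehicle. Its change of 0.30 ± 0.11 was not called (limma adjusted p = 0.0837). In CCRF-CEM it was -0.20, and without that line it was 0.39 and called (adjusted p = 0.0309). It was also called (adjusted p = 0.0409) when the test took only genes with a signal above 50 on 7 or more arrays.

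**Figure D2:**
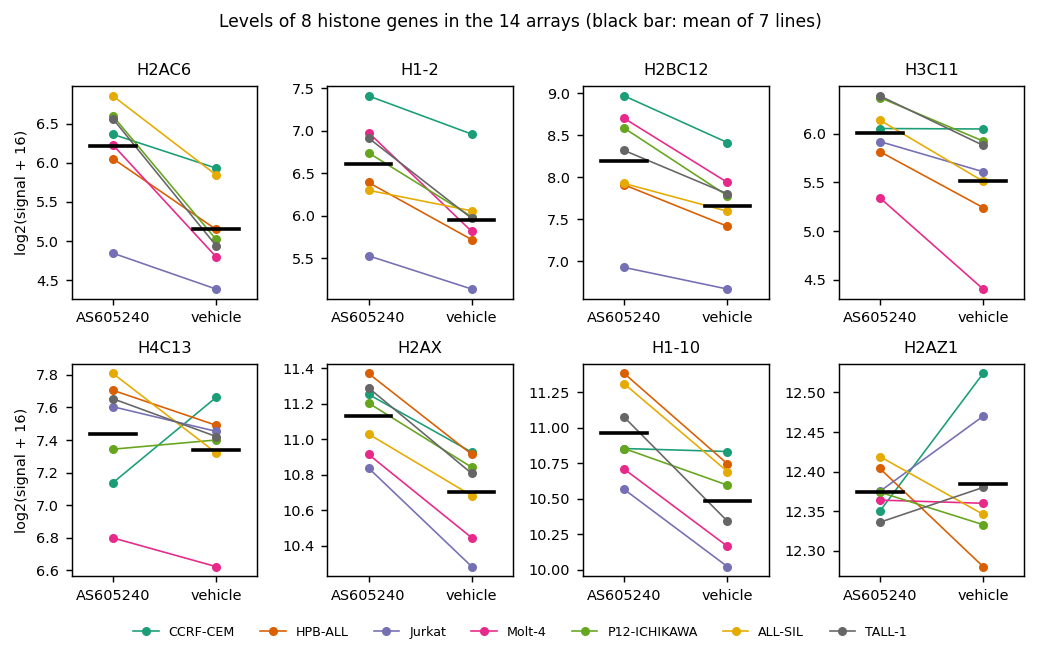
Level of 8 histone genes as log2(signal + 16) in each line with AS605240 (left) and vehicle (right), with lines joining the 2 arrays of a cell line and black bars for the mean of 7. H2AC6, H1-2, H2BC12, H3C11, H2AX and H1-10 go up in 7 of 7 lines, whereas H4C13 and H2AZ1 have no common direction.

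Among the variants H2AX and H1-10 rose. H2AX, whose phosphorylated form marks DNA breaks, was 10.84, 11.20 and 11.37 with AS605240, against 10.28, 10.81 and 10.93 with vehicle. All 7 lines went up by a narrow margin of 0.33 to 0.56, and the mean was 0.43 ± 0.06 (limma adjusted p = 0.000162). A second H2AX probe set gave 0.45 (adjusted p = 0.0012 in the fit over probe sets). The other two gave 0.23 and 0.02, neither of them called. H1-10, a linker variant, was 10.57, 10.85 and 11.38 with AS605240, against 10.02, 10.60 and 10.83 with vehicle. It rose by 0.48 ± 0.08 (limma adjusted p = 0.00103), least in CCRF-CEM (0.02). Its antisense neighbor H1-10-AS1 changed by 0.02.

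H2AZ1 encodes H2A.Z, which is placed at promoters, and was 12.34, 12.37 and 12.42 with AS605240, against 12.28, 12.36 and 12.52 with vehicle. The AS605240 arrays lay within the vehicle range, and the change was -0.01 ± 0.06 (limma adjusted p = 0.94). H2AZ2, which encodes the other form of H2A.Z, was 10.73, 11.14 and 11.20 with AS605240, against 10.64, 11.05 and 11.44 with vehicle, a change of 0.06 ± 0.07. Both H2AZ1 probe sets and all 4 H2AZ2 probe sets lay between -0.03 and 0.10. H3-3A, 1 of the genes of the replacement histone H3.3, was 6.14, 6.95 and 7.75 with AS605240, against 5.90, 6.48 and 7.80 with vehicle. Its change of 0.20 ± 0.08 was not called (limma adjusted p = 0.108). H2AJ changed by 0.24 ± 0.08 (adjusted p = 0.0563). Without CCRF-CEM it was 0.31 and called (adjusted p = 0.0199), and of its other probe sets 1 gave 0.37 and was called (adjusted p = 0.00837 over probe sets), while the other two gave 0.12 and 0.03. H1-7 and H1-8, germline linker histones with no array over a signal of 50, changed by 0.11 and -0.13.

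The pseudogenes H1-9P, H2AC5P and H4C10P changed by 0.09, -0.11 and -0.01 and were not called. Of genes whose older symbols meet the rule, MACROH2A1 changed by -0.09, MACROH2A2 by 0.19 and H3-4 by -0.0006, and none was called.

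The replication-dependent genes also differed in brightness. Of the 13 with a signal above 50 on 7 or more arrays, 9 rose and the median change was 0.40. When only genes that passed this filter were fitted, 10 of the 13 rose. Over all genes, 2275 of the 9186 that passed it then rose, against 2339 of 19775 without the filter. Of the 30 dimmer genes, 7 rose and the median was 0.08. A pseudocount of 16 shrinks the change of a dim gene, and a gene can pass the threshold through its AS605240 arrays, so these counts only describe. Of the 18 called genes, 10 were read by probe sets with the suffix _x_at or _s_at, whose probes also match other transcripts, so near-identical copies may share their signal. The other 8, H1-2, H2AC17, H2BC12, H3C11, H2AC8, H2BC17, H3C7 and H2BC14, were read by sets without it. A missing suffix does not show that a set reads a single gene. Some of the shared sets described below lack it and list 10 or 14 histone genes.

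Shared probe sets list 2 to 14 histone genes and can name none of them. Of 28, 11 rose and 0 fell, against 10.4% of all probe sets with a gene name that rose. The calls were 4 of 5 for H2A, 4 of 5 for H2B, 1 of 2 for H3 and 2 of 2 for sets of both H2A and H3 genes, and 0 of 6 for H4 and 0 of 8 for H3.3. A set of 10 H3 genes was 4.75, 5.77 and 6.18 with AS605240, against 4.0004, 4.61 and 5.07 with vehicle. It rose by 0.94 ± 0.09 (limma adjusted p = 2.66e-05), by at least 0.61 in each line. This set was dim, with a median signal of 16.2, below the median signal of every array (19.9 at the lowest), and its lowest vehicle value was at the floor set by the offset. A set of 6 H2A genes rose by 0.74 ± 0.12 and 1 of 2 H2B genes by 0.64 ± 0.18 (adjusted p-values of 0.000698 and 0.0205). The bright set of 2 H2A genes, H2AC18 and H2AC19, was 8.46, 8.98 and 9.72 with AS605240, against 7.51, 8.51 and 9.39 with vehicle, and rose by 0.63 ± 0.12 (adjusted p = 0.00286). The H4 sets ran from -0.02 to 0.25, and the H3.3 sets from -0.03 to 0.07. Several of these sets list genes that are also members, so they are no independent count.

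**Figure D3:**
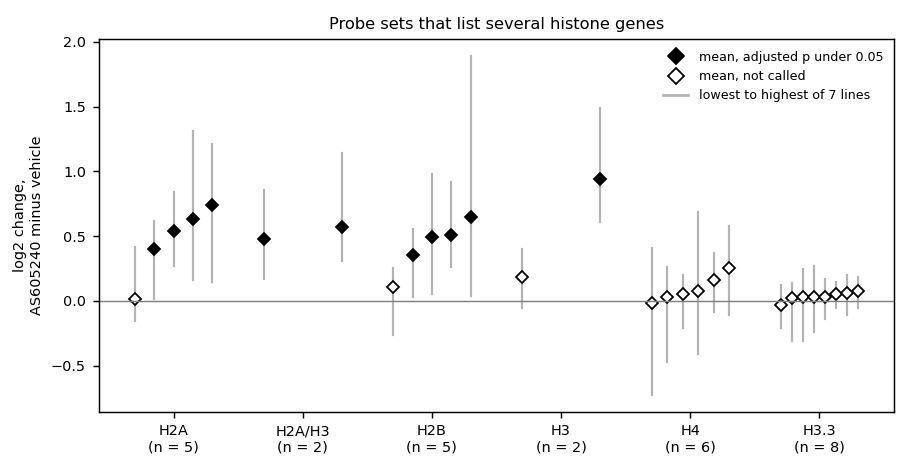
Change of the 28 probe sets that list several histone genes, by histone type, as AS605240 minus vehicle on the log2(signal + 16) scale. Diamonds are means of 7 lines, filled at an adjusted p under 0.05 over all probe sets with a gene name, and gray bars run from the lowest to the highest line. The 6 H4 sets and the 8 H3.3 sets have no filled diamond.

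Some members face each other from starts close by. H2AC17 and H2BC17 (240 bases between starts) rose by 0.54 and 0.45, H2AC14 and H2BC14 (245 bases) by 0.40 and 0.24, and H3C7 and H2BC9 (979 bases) by 0.26 and 0.30. H2AC15 and H2BC15 (194 bases) changed by -0.06 and 0.06 and neither was called. H2AC6, whose shared stretch with H2BC4 is printed above, rose by 1.06, while H2BC4 changed by 0.20 (limma adjusted p = 0.0558) at a signal that never passed 50. Of the replication-dependent members on chromosome 6, 14 of 40 rose, as did 1 of 2 on chromosome 1 and the 1 on chromosome 21.

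The response differed in size between lines. Each line received its own IC50 of AS605240, in the paper lowest for CCRF-CEM and highest for P12-ICHIKAWA. The paper gives the same IC50 for Jurkat and ALL-SIL and a close one for HPB-ALL. Where the IC50 differed, line and concentration cannot be told apart. The median change of the replication-dependent genes was 0.05 in CCRF-CEM, 0.25 in HPB-ALL, 0.08 in Jurkat, 0.18 in Molt-4, 0.20 in P12-ICHIKAWA, 0.19 in ALL-SIL and 0.26 in TALL-1. The number above 0 ran from 25 of 43 in CCRF-CEM to 39 of 43 in TALL-1. Over the 18 genes called, Molt-4 held the largest change for 7, and CCRF-CEM and Jurkat each held the smallest for 6. CCRF-CEM also had the highest vehicle level for 13 of the 18, and Jurkat the lowest for 11. The median change of the 18 genes was 0.60 in Molt-4, 0.28 in CCRF-CEM and 0.28 in Jurkat. The spike-in RNAs were higher by 0.55 in Molt-4, 0.005 in CCRF-CEM and 0.11 in Jurkat, and by 0.17 to 0.27 in the other 4 lines, and the part of this in the differences between lines was not tested. With 1 pair per line, these differences between lines have no test.

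**Figure D4:**
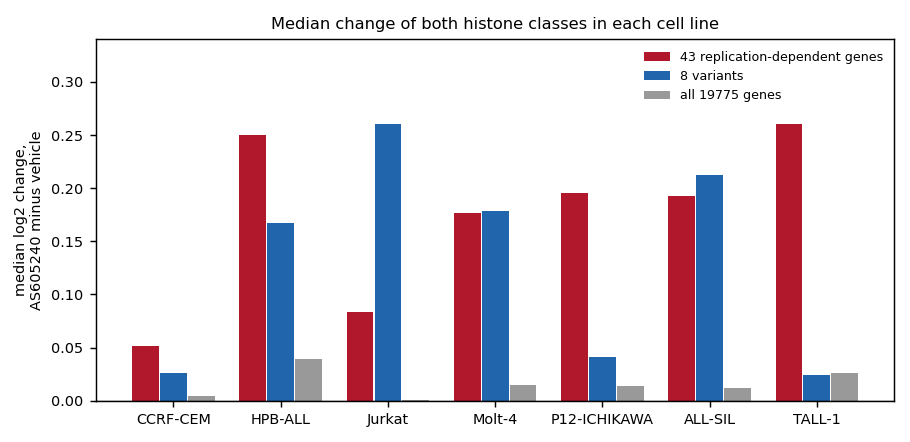
Median log2 change (AS605240 minus vehicle) in each cell line for the 43 replication-dependent genes, the 8 variants and all 19775 genes. The replication-dependent median is above 0 in 7 of 7 lines, lowest in CCRF-CEM (0.05), and the variant median exceeds it in Jurkat, Molt-4 and ALL-SIL.

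Several members also set the lines apart whatever the treatment. In the limma F test of the line terms 31 of the 51 coding members differed between lines (25 replication-dependent genes and 6 variants), against 66.9% of all genes. H2AJ, a variant reported in senescent and epithelial cells, had the largest F, 440. It was 10.42 with AS605240 and 10.55 with vehicle in CCRF-CEM, and 9.49 and 9.35 in HPB-ALL. The other 10 arrays lay between 4.91 and 5.73, so 2 lines stood more than 3 log2 units above the rest. These values rest on 1 of 4 H2AJ probe sets, with a mean level of 6.63. The other sets had mean levels of 5.77, 5.14 and 4.28, and the lines were not compared on them. H2BC9 (F = 164) fell into 2 levels, 7.15 to 7.89 in the 8 arrays of CCRF-CEM, HPB-ALL, P12-ICHIKAWA and TALL-1, and 5.14 to 5.90 in the 6 arrays of Jurkat, Molt-4 and ALL-SIL. The changes of H2BC9 with AS605240 ran from 0.11 to 0.50.

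H2BC12 (F = 39.98), H3-3A (F = 37.6) and H2BC6 (F = 27.3) came next. H3-3A was high in P12-ICHIKAWA (7.75 with AS605240 and 7.80 with vehicle) and TALL-1 (7.31 and 7.28), and low in CCRF-CEM (6.14 and 6.02) and Jurkat (6.16 and 5.90). These values rest on 1 probe set with a median signal of 80.6. Shared sets that list H3-3A with H3-3B ran, with vehicle, from 12.34 to 12.90 for the brightest and from 6.79 to 8.36 for the dimmest. H2BC6 was highest in CCRF-CEM (7.76 and 7.34). H2AC25 was near background in CCRF-CEM (4.44 and 4.34) and reached 7.99 and 7.43 in ALL-SIL. H2AZ1 was the most even of the bright members (F = 0.23, adjusted p = 0.966). Without P12-ICHIKAWA 31 of 51 members were called, 30 of them also called with all lines.

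**Figure D5:**
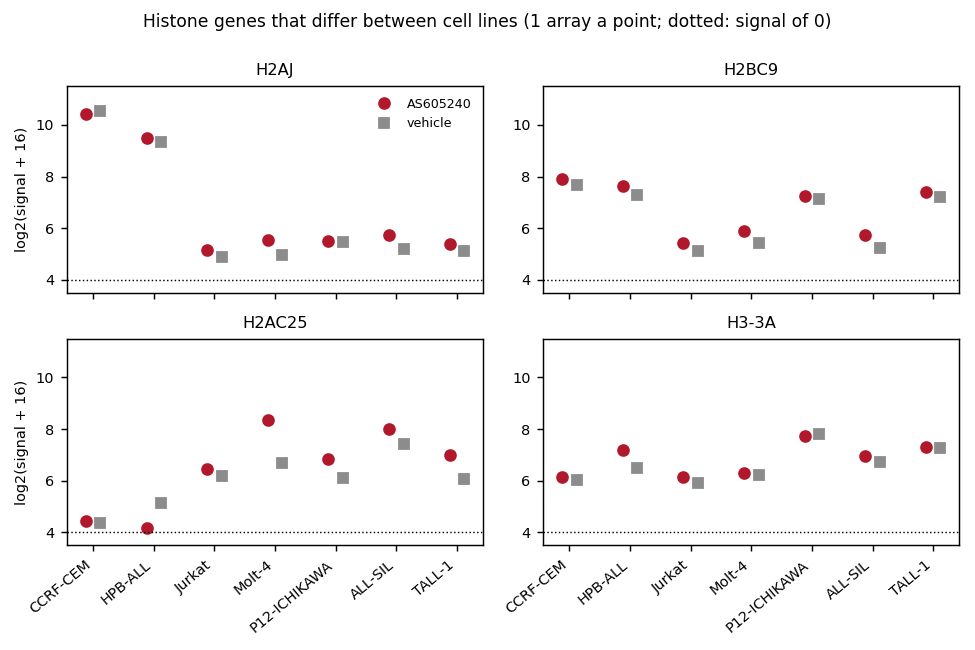
Level as log2(signal + 16) of H2AJ, H2BC9, H2AC25 and H3-3A in the 7 lines, with AS605240 (circles, left) and vehicle (squares, right), 1 array a point. H2AJ is above 9 in CCRF-CEM and HPB-ALL and below 6 elsewhere, and H2BC9 takes 2 levels.

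Genes that make, process and handle histone mRNA and protein moved in both directions. Of 12 measured genes that drive histone transcription, 4 rose and 1 fell, with a median of 0.11. NPAT, the coactivator of histone genes, rose by 0.30 ± 0.05 and HINFP, which binds H4 promoters, by 0.43 ± 0.06, both in 7 of 7 lines (limma adjusted p-values of 0.00162 and 0.000388). CDC25A, a phosphatase that activates CDK2, fell by 0.26 ± 0.07 (adjusted p = 0.0139). CASP8AP2 and CCNE1 also rose. POU2F1, which binds the octamer, was not analysed here.

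The list for 3′-end processing had 2 of 17 genes higher and 4 lower, with a median of -0.11. ZNF473, a zinc-finger partner of the U7 snRNP, rose by 0.65 ± 0.07, whereas LSM10, a core protein of that particle, fell by 0.53 ± 0.06 and SRRT, a partner of the nuclear cap-binding complex, by 0.43 ± 0.06, each in 7 of 7 lines. LSM11 rose, and CPSF2 and NCBP1 fell. Among 11 genes of histone mRNA decay 4 rose and 4 fell. UPF1, a helicase recruited to histone mRNA, rose by 0.51 ± 0.06 and XRN1, the 5′ exonuclease, by 0.41 ± 0.06, while PNPT1, a mitochondrial exoribonuclease, fell by 0.61 ± 0.08. Of 30 histone chaperones and carriers, 6 rose and 1 fell. HIRA, the H3.3 chaperone, rose by 0.31 ± 0.06 and the importin IPO9 by 0.32 ± 0.06, and the importin IPO4 fell by 0.35 ± 0.07.

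S-phase genes moved little as a list. Of 24 measured, 4 rose and 2 fell, with a median of 0.04. CDT1, a licensing factor, rose by 0.42 ± 0.08 and POLE, the catalytic subunit of a replicative polymerase, by 0.22 ± 0.06, and POLA1, of polymerase alpha, fell by 0.34 ± 0.08. Of 17 genes tied to cell-cycle arrest, 9 rose and 2 fell, with a median of 0.19. CCNG2, a FOXO-regulated cyclin linked to arrest, was 10.45 ± 0.45 with AS605240, against 9.30 ± 0.57 with vehicle (SD, n = 7 each), and rose by 1.15 ± 0.08. CDKN1B, the CDK inhibitor p27, rose by 0.40 ± 0.06, and E2F5, a repressor-type E2F, fell by 0.43 ± 0.07. These lists were counted against the same background of 11.8% higher and 7.03% lower, and no list was tested.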

How the data were processed

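The deposited values are linear intensity values of 54675 probe sets on 14 arrays. PLIER and version 1.3.1.187 of Affymetrix Expression Console stand in the submitters' processing notes, and the study's methods give iterPLIER with 16 added and log2 taken. For any normalization before that, nothing is given in the sources used here. The planned tests assumed log2 values, so log2(value + 16) was computed here, with no filter on dim signals. Gene names came from the platform annotation, with symbols updated through RefSeq for 41037 of 41091 single-gene probe sets. Another 1801 probe sets name several genes and 11721 name none.

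The test of AS605240 against vehicle was two-sided, by lmFit and eBayes of limma 3.58.1 (R 4.3.3), with the cell line as a block, as the study paired the 2 cultures of a line. Benjamini-Hochberg adjustment ran over all 19775 genes, or over all 42892 probe sets with a gene name, and calls were made at 0.05. The fold of 1.5 was counted apart. Members with values in the text are those called, the 10 brightest, the bright variants, the 5 of largest F and the 3 of smallest p in each list. The other members, the fits of H2AC25 and H4C11 without a line, the brightest shared probe sets and the promoters shown were picked after their values were seen. The members and lists were chosen with earlier results of these data known. The fit was tested on simulated data. RefSeq promoter windows were matched for 48 members. Of 80 coding genes in the RefSeq table whose symbols meet the rule, 51 had a probe set of their own, and 9 were not analysed here. The number of arrays limits the precision, and each p-value measures the spread between lines. Alternatives were the offset, the normalization, the centring, the choice of probe set, a filter on dim genes, the block, each line left out, P12-ICHIKAWA and TALL-1 as 1 line and the moderation of the variance.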

Additional observations from a re-analysis of the deposited data

Results flagged for a closer look

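In H2BC5 the change in Molt-4, 1.05, lay apart from those of the other 6 lines, which ran from 0.28 to 0.51. It was the 1 outlying line among 20 sets of 7 changes examined, the 18 called genes and the medians of both classes, and chance alone gives about 1 in 20. Without Molt-4 the mean change of H2BC5 was 0.39.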

How the results depend on the processing

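No change of a called gene turned its direction under the 17 alternatives. Replication-dependent genes called higher numbered 8 of 33 with probe sets that lack the suffix _x_at or _s_at, and 10 of 13 with the filter of a signal over 50 in at least 7 arrays, where fewer genes were tested. Over all genes, 1901 of 17098 were called higher without the suffixes and 2275 of 9186 with the filter. Without the replicate block 0 of 43 and 0 of 8 variants were called by limma (at an unadjusted p under 0.05, 7 and 2, against 23 and 4 with the block), and 19 of all genes rose. Variants called higher were 0 of 5 without the suffixes, where neither H1-10 nor H2AX had a probe set left to measure it. The median of the replication-dependent genes was 0.073 with an offset of 64, 0.082 without the suffixes and 0.40 with the filter, in place of 0.16, and that of the variants 0.084 with an offset of 64 and 0.096 without the suffixes, in place of 0.16. Leaving out each line in turn gave 15 to 16 replication-dependent genes and 2 to 3 variants called, with a median of 0.14 to 0.20 for the replication-dependent genes. Of single genes, H3C8 lost its call with an offset of 4, quantile normalization, centring, P12-ICHIKAWA and TALL-1 as 1 line and 6 of 7 lines left out, H2BC14 with centring and without P12-ICHIKAWA, and H2BC21 with an offset of 64. By histone type, calls without the suffixes were 2 of 6 for H2A (4 of 8 with them) and 3 of 9 for H2B (8 of 14), with the filter 1 of 2 for H2A and 5 of 5 for H2B, and for H4 1 with the filter and 1 without CCRF-CEM, in place of 0. Centring made 2146 of all genes lower in place of 1390. In the transcription list 2 genes rose in place of 4 with an offset of 4, centring, the mean of probe sets, sets without the suffixes and without ALL-SIL. In the S-phase list 1 rose in place of 4 with an offset of 4, centring, sets without the suffixes and without CCRF-CEM or HPB-ALL, 2 without Molt-4 or TALL-1, and 1 fell in place of 2 with an offset of 4, the mean of probe sets, TALL-1 and P12-ICHIKAWA as 1 line and each line but HPB-ALL left out. The decay list had 2 lower in place of 4 with an offset of 4, the chaperones 2 lower in place of 1 with centring or an offset of 64, and the arrest list 5 higher and 1 lower, in place of 9 and 2, without the suffixes. Without the block these lists kept 1 call, in the decay list. The cause was not tested.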
